A study of Rattus norvegicus with 6 samples.

Results

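The miRNAs described here are those cut from 5 neighbouring hairpins, miR-431, miR-433, miR-127, miR-434 and miR-136, which are transcribed antisense to the imprinted gene Rtl1. They were found by hairpin name among the mature rat miRNAs listed in each library, and the 9 that matched, of 562 in all, are miR-431, both arms of miR-433, both arms of miR-127, both arms of miR-434 and both arms of miR-136. All 9 were listed above 0 in every library. Small RNA of the hypothalamic arcuate nucleus (ARC) of Sprague-Dawley rats aged 8 to 10 weeks was sequenced on Day 14 after surgery. By the study's methods rats were male where nothing else is said, and no other sex is given for the sequencing. Of the 6 libraries, 3 came from rats with a chronic constriction injury of the left infraorbital nerve (CCI-ION), in which loose silk ligatures were tied around the nerve, and 3 from sham-operated rats, whose nerve was exposed on the same side but not ligated. No other agent, transgene or deletion is named for either group, and rats were assigned to the groups at random. The study counts more rats than libraries in each group for these data, and how rats were combined into libraries is not given in the sources used here, so that n counts libraries and p-values measure the spread between them, which may be technical. Values of single libraries are given in the order of replicates 1, 2 and 3 of each group.

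The genes between Dlk1 and Dio3 are imprinted. Dlk1, Rtl1 and Dio3 code for proteins and are expressed from the paternal chromosome, while the noncoding RNAs Meg3, anti-Rtl1, Rian and Mirg are expressed from the maternal one and carry a large group of miRNAs that is prominent in the brain of placental mammals. The anti-Rtl1 transcript runs against Rtl1, a gene derived from a retrotransposon and best known for its part in the placenta. Its miRNAs are therefore fully complementary to the Rtl1 mRNA and can direct its cleavage, in addition to the usual repression of other mRNAs through the seed, bases 2 to 8 of the mature miRNA. A hairpin can give rise to 2 mature miRNAs, 1 from its 5p arm and 1 from its 3p arm, and usually 1 of them is retained far more often than the other.

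RefSeq (assembly GRCr8) places the 5 hairpins on the plus strand of chromosome 6, within the span of Rtl1 and in the order miR-431 (chr6:134326449-134326562), miR-433 (chr6:134327358-134327450), miR-127 (chr6:134328454-134328550), miR-434 (chr6:134330402-134330482) and miR-136 (chr6:134331335-134331416). The gaps between neighbours were 795, 1003, 1851 and 852 nucleotides. The libraries were processed by the submitters with another build, rn6, and carry no coordinates of their own. The mature sequences of the 7 members matched in RefSeq are shown 5′ to 3′ with the seed in capitals, since the seed sets which mRNAs a miRNA can pair with.
miR-431: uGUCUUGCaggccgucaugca
miR-433-5p: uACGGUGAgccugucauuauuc
miR-433-3p: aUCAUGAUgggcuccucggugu
miR-127-3p: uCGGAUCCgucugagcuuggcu
miR-434-5p: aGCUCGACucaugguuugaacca
miR-434-3p: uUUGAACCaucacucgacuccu
miR-136-3p: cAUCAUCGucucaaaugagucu

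These 7 miRNAs had 7 different seeds, and none of the 512 miRNAs of the libraries that matched a RefSeq sequence shared a seed with any of them. They were 21 to 23 nucleotides long. Their sequences were 8 or more edits (substitutions, insertions or deletions) away from every other matched miRNA, so none of those is a near-identical copy that could take a share of their reads. Their GC content ran from 40.9% in miR-136-3p to 59.1% in miR-127-3p, around a median of 47.8% for all matched miRNAs. The longest run of bases that any 2 of them had in common was 9 nucleotides, UUUGAACCA, which begins at base 15 of miR-434-5p and at base 1 of miR-434-3p and occurs 3 times in the miR-434 hairpin. The 4 hairpins whose arms are compared below are shown with the mature miRNAs that RefSeq lists in capitals.
miR-433: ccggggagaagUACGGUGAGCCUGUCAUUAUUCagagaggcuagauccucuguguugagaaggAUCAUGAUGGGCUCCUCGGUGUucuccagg
miR-127: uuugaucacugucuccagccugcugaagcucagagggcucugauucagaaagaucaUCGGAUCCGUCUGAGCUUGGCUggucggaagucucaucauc
miR-434: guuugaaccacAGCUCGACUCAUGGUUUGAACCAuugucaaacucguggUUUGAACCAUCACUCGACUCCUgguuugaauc
miR-136: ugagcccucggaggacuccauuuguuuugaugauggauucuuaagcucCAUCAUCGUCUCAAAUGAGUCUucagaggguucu

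Values are normalized counts, in which each library's reads were scaled by one size factor. In each library they came in whole multiples of a fixed step, and if a step is 1 read, sham libraries held 11115049 to 14313839 reads and CCI-ION libraries 8628309 to 11297551, with 5 reads as the smallest value listed. The rarest member, miR-433-5p, then rested on 125 to 439 reads and carried the most counting error, while the most abundant, miR-127-3p, rested on 503127 to 799507. The tissue was rich in the 2 markers used for the neuroendocrine hypothalamus, miR-7a-5p and miR-7b, both of the miR-7 family. Neuronal marker miRNAs were lower in the CCI-ION libraries (5 of 6 markers listed, summed normalized counts 527723 to 630385 against 660728 to 885574 in sham libraries, 1 of them past the threshold), and so were those of the neuroendocrine hypothalamus (936240.2 to 1547614 against 2109492 to 3403383) and of oligodendrocytes (7133 to 7612 against 9165 to 14031). The 4 vessel-wall markers were higher (151501 to 165454 against 80232 to 105934, 2 of them past the threshold), and the 7 pituitary markers summed to 17444, 43288 and 33381 after CCI-ION against 13562 to 19109 in sham libraries. Markers of erythrocytes, of microglia and leukocytes, of choroid plexus and ependyma, and of skeletal muscle overlapped between the groups. In bulk tissue, fewer cells of a type and less RNA per cell cannot be told apart, and the part of these shifts in the results on the anti-Rtl1 miRNAs was not tested.

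Together the 9 miRNAs made up 7.01% ± 0.832 of the normalized counts of a sham library and 8.02% ± 0.742 of a CCI-ION library (SD, n = 3 each). Summed, they came to 839562 ± 67937 normalized counts without and 838130.1 ± 81602 with the ligatures (SD, n = 3 each), which differed by less than the spread between libraries. All miRNAs together summed to less in CCI-ION libraries (10319534 to 10511462 normalized counts) than in sham libraries (11316959 to 12703108), so the mean share was higher although the sum was not. miR-127-3p alone supplied 75.0% ± 0.467 of that sum under sham surgery and 77.1% ± 2.77 under CCI-ION (SD, n = 3 each), and it ranked 4 among all 562 miRNAs by its sham mean. Mature miRNAs are nearly equal in length, so these levels need no correction for it, but adapter ligation and amplification can favour some sequences, which limits comparisons between miRNAs.

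In sham rats the order of levels was miR-127-3p, miR-434-3p (rank 20 of all miRNAs), miR-433-3p (rank 37), miR-434-5p (rank 39), miR-431 (rank 156), miR-127-5p (rank 158), miR-136-3p (rank 220), miR-136-5p (rank 240) and miR-433-5p (rank 287). The sham means ran from 629614 ± 50242 normalized counts for miR-127-3p to 352 ± 19.8 for miR-433-5p (SD, n = 3 each). Libraries of neighbours in this order did not overlap, except for miR-433-3p with miR-434-5p, miR-431 with miR-127-5p, and miR-136-3p with miR-136-5p. In CCI-ION rats miR-434-5p stood above miR-433-3p, with overlapping libraries, and miR-127-5p stood above miR-431, without overlap.

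**Figure D1:**
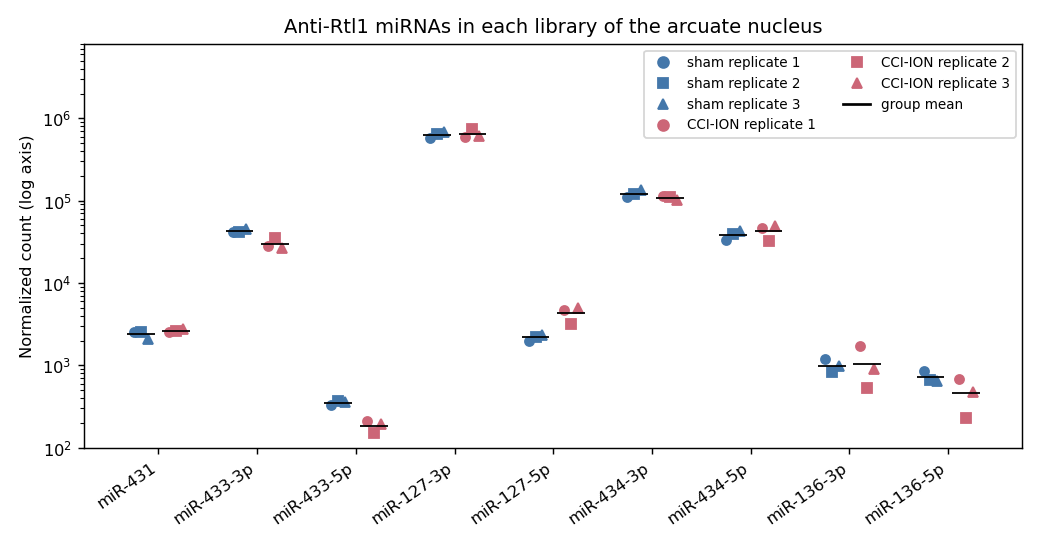
Normalized counts (log axis) of the 9 anti-Rtl1 miRNAs in each of the 3 sham and 3 CCI-ION libraries, one symbol per library and a line at each group mean, with hairpins in genomic order. miR-433-3p and miR-433-5p lie lower and miR-127-5p lies higher in every CCI-ION library, while the miR-136 arms of the CCI-ION libraries are spread widely.

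The first question was whether the level of any of these miRNAs differed between CCI-ION and sham rats. miR-433-5p fell, and the other 8 did not pass the threshold of 0.05 after Benjamini-Hochberg adjustment over all 555 miRNAs tested with limma on log2(normalized count + 1). In this test 6.85% of all miRNAs passed, 3.42% as higher and 3.42% as lower, so that 1 member of 9 is near the background. An unadjusted p under 0.05 was reached by 3 of the 9 and by 33.0% of all miRNAs. The median log2 fold change of the 9 was -0.07, beside -0.01 for all miRNAs tested, with 4 positive and 5 negative values from -0.93 to 0.95. The libraries of the groups did not overlap for 4 of the 9 and for 40.7% of all miRNAs tested, with 2 members higher (19.5% of all) and 2 lower (21.3% of all).

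miR-433 gave the lower values after injury. rno-miR-433-5p, the rarer arm of that hairpin, measured 329, 365 and 362 normalized counts in the sham libraries, against 208, 152 and 195 after CCI-ION. All CCI-ION libraries were below all sham libraries, and CCI-ION replicate 2 was the lowest. limma gave a log2 fold change of -0.93 (SE 0.15, 95% interval -1.32 to -0.55, adjusted p = 0.0334), from a mean of 352 ± 19.8 to 185 ± 29.3 (SD, n = 3 each). The call was lost without any 1 of the sham libraries and without CCI-ION replicate 3 (log2 fold changes -0.98 to -0.91, adjusted p 0.0843 to 0.138 from limma), and with total-count scaling (-0.73, adjusted p = 0.0546).

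The abundant arm of the hairpin, rno-miR-433-3p, measured 41985, 41611 and 44703 normalized counts in the sham libraries, against 28295, 35087 and 26992 after CCI-ION. Again no libraries of the groups overlapped, and CCI-ION replicate 2 was this time nearest to the sham libraries. The log2 fold change of -0.51 (standard error 0.14, 95% interval -0.86 to -0.17) missed the threshold (limma, adjusted p = 0.0828). Without CCI-ION replicate 2 it was -0.63 and passed (adjusted p = 0.0370 from limma). It also passed with upper-quartile scaling (-0.84, adjusted p = 0.0250), at least 10 reads in every library (0.0470) and an intensity trend (0.0314, all from limma). It missed the threshold in the other settings, among them total-count scaling (limma adjusted p = 0.178) and leaving out any 1 of the other libraries (0.134 to 0.217). Both arms of miR-433 thus had negative values in every scaling tried, total-count scaling included (-0.73 for the 5p arm and -0.31 for the 3p arm).

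miR-127-3p, with the seed CGGAUCC, is the dominant product of the whole group. As rno-miR-127-3p it measured 575011, 639942 and 673889 normalized counts in the sham libraries, against 590839.6, 747183 and 605521 after CCI-ION. The groups overlapped, and the highest library was CCI-ION replicate 2. With limma it differed by 0.04 on the log2 scale (SE 0.14, 95% interval -0.32 to 0.39, adjusted p = 0.881), and the sign turned, to -0.29, with upper-quartile scaling.

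The other arm of this hairpin is far rarer. Here rno-miR-127-5p measured 1977, 2224 and 2351 normalized counts in the sham libraries, against 4741, 3194 and 4922 after CCI-ION. Every CCI-ION library exceeded every sham library, with replicates 1 and 3 well above replicate 2. The change in log2 units was 0.95 (standard error 0.20, 95% interval 0.44 to 1.46), from a mean of 2184 ± 190.0 to 4286 ± 949.8 (SD, n = 3 each), and missed the threshold (limma, adjusted p = 0.0554). Without CCI-ION replicate 2 it was 1.15 and passed (adjusted p = 0.0170 from limma), and it also passed with total-count scaling (1.15, adjusted p = 0.0356). Further passes came with a mean of at least 10 (limma adjusted p = 0.0300), at least 10 reads in every library (0.0200) and an intensity trend (0.0160). It missed with no filter (limma adjusted p = 0.0577), a pseudocount of 0.1 (0.0609) and a replicate block (0.125). With upper-quartile scaling it was 0.62 (adjusted p = 0.0853 from limma), and without any 1 of the other libraries it was 0.84 to 1.00 (adjusted p 0.0897 to 0.149 from limma).

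Neither arm of miR-434 passed the threshold. rno-miR-434-3p measured 110763, 119624 and 135217 normalized counts in the sham libraries, against 115521, 111396 and 100611 after CCI-ION, a log2 fold change of -0.16 (standard error 0.13, 95% interval -0.48 to 0.16, adjusted p = 0.423 from limma) that turned to 0.05 with total-count scaling. rno-miR-434-5p measured 33356, 39644 and 42985 normalized counts in the sham libraries, against 46406, 31993 and 48658 after CCI-ION. CCI-ION replicate 2 was below all sham libraries while replicates 1 and 3 were above them, so that the log2 fold change of 0.12 (95% interval -0.40 to 0.63, adjusted p = 0.718 from limma) averages opposite positions, and it turned to -0.22 with upper-quartile scaling.

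The arms of miR-136, at the far end of the group, were the most variable members. rno-miR-136-3p measured 1197, 819.8 and 969 normalized counts in the sham libraries, against 1725, 527 and 902 after CCI-ION. The CCI-ION libraries held both the highest and the lowest of the 6 values. rno-miR-136-5p measured 857, 663 and 639.7 normalized counts in the sham libraries, against 679, 231 and 481 after CCI-ION, with replicate 2 again the lowest. On the log2 scale the SD between CCI-ION libraries was 0.86 for miR-136-3p and 0.79 for miR-136-5p, beside a median of 0.22 for all miRNAs with a mean of at least 10. With this spread the log2 fold changes of -0.07 for the 3p arm (95% interval -1.19 to 1.04, adjusted p = 0.927 from limma) and -0.75 for the 5p arm (95% interval -1.78 to 0.28, adjusted p = 0.244 from limma) missed the threshold, and that of the 3p arm was 0.13 with total-count scaling and 0.34 without CCI-ION replicate 2.

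miR-431, the first hairpin of the group, is listed with a single mature miRNA. It measured 2561, 2532 and 2109.7 normalized counts in the sham libraries, against 2563, 2592 and 2773 after CCI-ION. The groups did not overlap, but CCI-ION replicate 1 and sham replicate 1 were almost equal. On the log2 scale the difference was 0.14 (standard error 0.13, 95% interval -0.17 to 0.45, adjusted p = 0.445 from limma), and it was -0.19 with upper-quartile scaling.

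**Figure D2:**
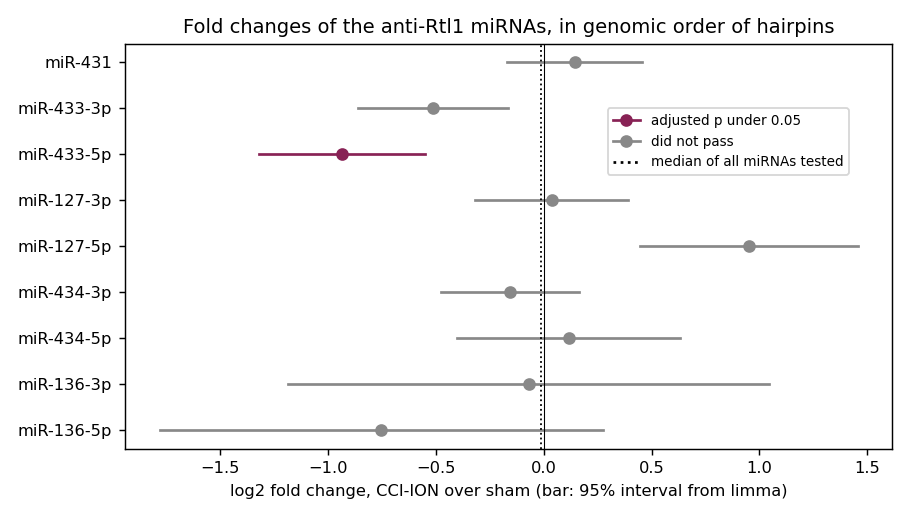
Log2 fold changes of CCI-ION over sham for the 9 miRNAs, with 95% intervals from limma (3 libraries per group), in genomic order of the hairpins, the dotted line marking the median of all miRNAs tested. Only miR-433-5p, at -0.93, passed the threshold, and the intervals of the miR-136 arms are the widest.

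CCI-ION replicate 2 differed from the other libraries of its group in several members. Against the mean of CCI-ION replicates 1 and 3 on the log2 scale it differed by -1.30 in miR-136-5p, -1.24 in miR-136-3p, -0.60 in miR-127-5p, -0.57 in miR-434-5p and -0.40 in miR-433-5p, and in the other direction by 0.34 in miR-433-3p and 0.32 in miR-127-3p. The size of this difference had a median of 0.27 over all miRNAs with a mean of at least 10, and only 4.50% of them had a larger one than miR-136-5p. This library also had the fewest reads, and the highest sum of pituitary markers. The part of depth or of pituitary RNA in its values was not tested.

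Because both arms of a hairpin come from the same precursor, their ratio within a library hardly depends on the scaling, and it was compared between the groups for the 190 hairpins with both arms (limma on the log2 ratio of 5p to 3p). Of the 4 hairpins here, 0 passed the threshold in this test with an adjusted p under 0.05 and 2, miR-127 and miR-136, had an unadjusted p under 0.05, while 10.5% of all hairpins passed (4.21% with a higher and 6.32% with a lower ratio) and 32.6% had an unadjusted p under 0.05. The groups did not overlap for 3 of the 4 and for 40.5% of all hairpins, with 1 higher (17.9% of all) and 2 lower (22.6% of all). All 4 gave more 3p than 5p reads in every library. The 5p arm made up 0.346% ± 0.00257 of the miR-127 hairpin, 0.817% ± 0.0475 of miR-433, 24.1% ± 0.875 of miR-434 and 42.1% ± 2.49 of miR-136 in sham rats (SD, n = 3 each).

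For miR-127 the sham libraries were almost identical in this ratio, with log2 values of -8.18, -8.17 and -8.16, against -6.96, -7.87 and -6.94 after CCI-ION. All CCI-ION libraries were above the sham libraries, replicate 2 by the least. The difference was 0.91 (standard error 0.28, adjusted p = 0.104 from limma), and the 5p share after CCI-ION was 0.676% ± 0.217 (SD, n = 3). Without CCI-ION replicate 2 the difference was 1.22 and passed the threshold (adjusted p = 0.0156 from limma).

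For miR-136 the ratio was lower after injury in every library. Its log2 values were -0.48, -0.31 and -0.60 in the sham libraries, against -1.34, -1.18 and -0.91 after CCI-ION. The groups did not overlap, and CCI-ION replicate 2 lay between the other libraries of its group although the level of each arm was lowest there. The difference was -0.68 (standard error 0.17, adjusted p = 0.0606 from limma), which missed the threshold, and the 5p share was 42.1% ± 2.49 in the sham and 31.2% ± 3.32 in the CCI-ION group (SD, n = 3 each). The difference passed without CCI-ION replicate 3 (-0.80, adjusted p = 0.0487 from limma).

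The ratio of miR-433 was -6.99, -6.83 and -6.95 in the sham libraries, against -7.08, -7.84 and -7.11 after CCI-ION. The groups did not overlap, but only CCI-ION replicate 2 was far from the sham libraries. The difference of -0.42 (adjusted p = 0.289 from limma) was -0.17 without that library. For miR-434 the log2 ratios of -1.73, -1.59 and -1.65 in the sham libraries and of -1.32, -1.80 and -1.05 after CCI-ION overlapped (difference 0.27, adjusted p = 0.439 from limma).

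**Figure D3:**
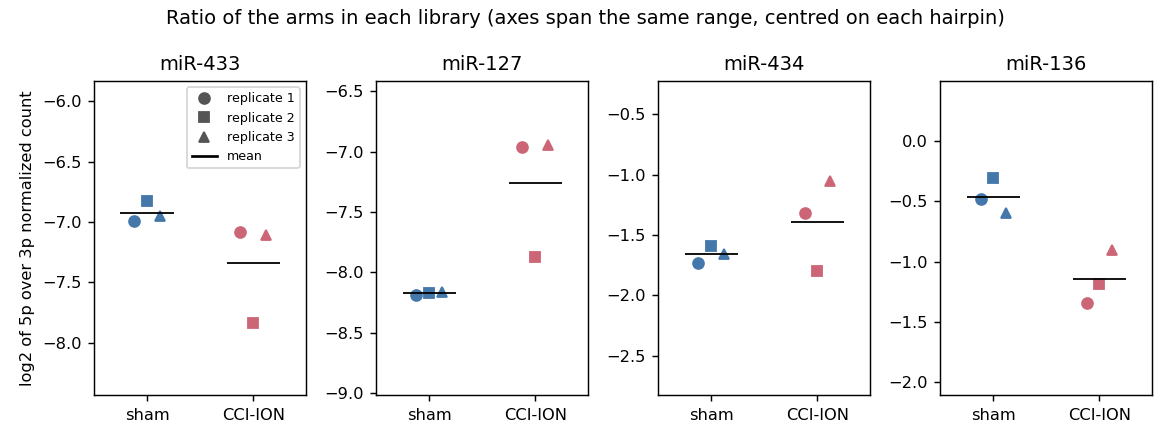
Log2 ratio of 5p over 3p normalized counts in each library for the 4 hairpins with both arms listed, one symbol per library and a line at the group mean, each axis spanning the same range around its hairpin. The sham libraries of miR-127 fall on one another near -8.17, whereas CCI-ION replicates 1 and 3 are at about -6.95 and replicate 2 is between.

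Since the hairpins are thought to share a primary transcript, each of the other 8 members was also set against miR-127-3p within the same library. The log2 ratio to miR-127-3p did not overlap between the groups for 3 of the 8, lower in CCI-ION rats for miR-433-3p (difference -0.55) and miR-433-5p (-0.97) and higher for miR-127-5p (0.91). The ratio of miR-127-5p is the arm ratio of miR-127 given above and not a further result. Set against miR-127-3p in the same way, 35.4% of the other miRNAs tested did not overlap (15.0% higher and 20.4% lower), so that 3 of 8 is near the background. Exact permutation of the group labels, two-sided, cannot go below p = 0.1 with 3 libraries against 3, and it gave 0.1 for these 3 and 0.3 to 1.0 for the other 5. miR-433-3p had similar ratios within each group, with -3.78, -3.94 and -3.91 in the sham libraries, against -4.38, -4.41 and -4.49 after CCI-ION. In this ratio CCI-ION replicate 2 lay with the rest of its group, which its normalized count did not.

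Next, the profile of each member over the 6 libraries was compared with those of the 488 other miRNAs with a mean of at least 10, by the root-mean-square difference of log2 values centred on each miRNA's own mean, given below in log2 units. The nearest profiles mostly came from outside the Dlk1-Dio3 domain, but so did most of the miRNAs compared. Of the 489 with a mean of at least 10, 9 were the members. A further 16 lay on the Meg3 side of Rtl1 or directly after the group, and 58 belonged to the Mirg cluster. Whether domain miRNAs were nearest more or less often than their number gives was not tested. For miR-433-3p they were those of miR-935 (0.0283), miR-328a-3p (0.0658) and miR-139-5p (0.0736), and for miR-433-5p those of miR-218a-5p (0.0681), miR-592 (0.112) and miR-384-5p (0.130). miR-127-3p was nearest to miR-30c-5p (0.0542), miR-383-5p (0.0683) and miR-541-5p (0.0693), the last from the Mirg cluster of the same domain. miR-127-5p was nearest to miR-24-2-5p (0.0632), miR-532-5p (0.116) and miR-181c-5p (0.128).

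miR-434-3p stood out in having miR-329-3p (0.0681) and miR-323-3p (0.0727), both of the Mirg cluster, as its nearest profiles, before miR-92b-5p (0.0772). miR-434-5p was nearest to miR-24-1-5p (0.106), miR-124-5p (0.122) and miR-194-5p (0.127), and miR-431 to miR-1193-3p (0.0537) of the Mirg cluster, miR-652-3p (0.0658) and miR-29a-3p (0.0854). The nearest profiles of the miR-136 arms were farther off. For the 3p arm they were those of miR-3559-5p (0.229), miR-3068-5p (0.266) and miR-135b-5p (0.279). For the 5p arm they were those of miR-135a-5p (0.140), miR-9a-3p (0.213) and miR-126a-5p (0.248). The difference is not scaled for spread, and its median over all 488 was largest for these arms (0.603 for 3p and 0.665 for 5p). Among the members themselves, the nearest pair was miR-127-3p with miR-434-3p (0.152), which are the 2 most abundant. Many miRNAs were nearer to each, since miR-434-3p came at place 44 for miR-127-3p, which came at place 59 for miR-434-3p. By place the miR-136 arms were the nearest pair (0.374), with the 5p arm at place 11 for the 3p arm and the 3p arm at place 21 for the 5p arm. The other arm of the hairpin was the nearest member only for the miR-136 arms and for miR-433-5p.

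The remaining miRNAs of the domain were read from 2 lists. The first holds miRNAs on the Meg3 side of Rtl1 and directly after the anti-Rtl1 group, and the second those of the Mirg cluster. Of the 16 in the first list 0 passed the threshold with limma (5 had an unadjusted p under 0.05, 3 higher and 2 lower), with a median log2 fold change of 0.08. The largest values were 0.71 for miR-341 (17339.6 ± 1457 to 29108 ± 8329.9 normalized counts, SD, n = 3 each, adjusted p = 0.104 from limma), 0.68 for miR-540-5p and 0.46 for miR-673-3p, and the smallest were -0.50 for miR-337-3p, -0.50 for miR-770-5p and -0.39 for miR-1188-3p. miR-341 is the next hairpin after miR-136 among those of the lists.

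Of the 63 tested in the Mirg list, 4 fell and 0 rose past the threshold, beside 3.42% of all miRNAs in each direction, and the median log2 fold change was -0.21. miR-369-3p fell from 2421 ± 601 to 1023 ± 175 normalized counts, miR-487b-5p from 126 ± 5.56 to 62.8 ± 6.23 and miR-543-5p from 81.2 ± 8.93 to 51.5 ± 2.60 (SD, n = 3 each, limma adjusted p = 0.0435, 0.0190 and 0.0450). The calls of miR-369-3p and miR-543-5p were lost without any 1 of the 6 libraries (limma adjusted p 0.0569 to 0.127 and 0.0643 to 0.139), that of miR-543-5p also with total-count scaling (0.0778), and that of miR-487b-5p without any 1 of the sham libraries (0.0679 to 0.0729). The fourth, miR-496-5p, had 12.6, 10.8 and 6.74 normalized counts in the sham libraries, near the lowest value listed, and was at 0 in all CCI-ION libraries. miR-539-3p had a log2 fold change of -1.60 and the highest values among miRNAs with a mean of at least 10 were 0.86 for miR-299a-3p, 0.81 for miR-299b-3p and 0.52 for miR-380-5p, none of which passed (adjusted p 0.0828 to 0.123 from limma). miR-299a-3p and miR-299b-3p have similar names and nearly equal values and may share reads.

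The counts for both lists changed with the scaling. With total counts 3 miRNAs of the Mirg list were lower and 1 was higher, and with upper quartiles 21 of the Mirg list and 3 of the first list were lower. Upper-quartile scaling also moved the median of all miRNAs from -0.01 to -0.33, and total-count scaling to 0.17. As a share of the library, the first list made up 0.538% ± 0.0614 under sham surgery and 0.727% ± 0.0651 under CCI-ION, and the Mirg list 2.92% ± 0.257 and 3.09% ± 0.205 (SD, n = 3 each), so that the 9 anti-Rtl1 miRNAs held more reads than both lists together in each group.

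**Figure D4:**
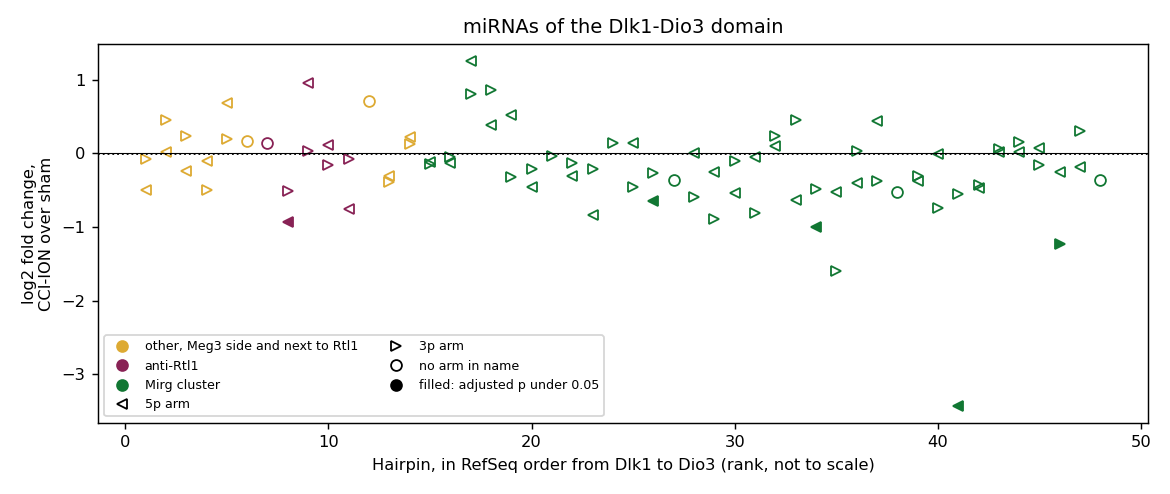
Log2 fold change of CCI-ION over sham for every tested miRNA of the domain, ordered by hairpin from Dlk1 to Dio3 (rank, not to scale), with 5p and 3p arms as left and right triangles and filled symbols for adjusted p under 0.05. The anti-Rtl1 miRNAs reach from -0.93 to 0.95, and the 4 filled symbols of the Mirg cluster are all negative. The lowest symbol is miR-496-5p, at 0 after CCI-ION, whose position depends on the pseudocount.

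In the arm test, 0 of 7 hairpins of the first list (1 at an unadjusted p under 0.05) and 2 of 29 of the Mirg list, miR-134 and miR-496, passed the threshold (limma), beside 10.5% of all hairpins.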

How the data were processed

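Small RNA of the rat ARC was measured in 3 sham and 3 CCI-ION libraries, grouped by their titles. Per library, the authors deposited a table of mature miRNAs with a signal each. The submitters' processing notes name cutadapt 1.14, Bowtie 1.1.1 and build rn6, and the counting, annotation and normalization are not given in the sources used here. In each library 100% of the low values were whole multiples of its step (within 0.1 of a step), and steps matched size factors recomputed as medians of ratios over 485 miRNAs, so values were read as counts over size factors. Totals per library limit the precision of rare miRNAs.

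limma 3.58.1 in R 4.3.3 was run on log2(normalized count + 1) with no covariates, for 555 miRNAs whose mean reached 1, and two-sided p-values were adjusted by Benjamini-Hochberg with a threshold of 0.05. This scale understates the change of low miRNAs. Ratios to miR-127-3p used exact permutation tests in Python 3.11.15. The scripts were tested on simulated data. The members and lists were chosen with earlier results of these data known. miRNAs of the lists were named if past the threshold or among the 3 highest or 3 lowest log2 fold changes with a mean of at least 10, and likeness names the 3 nearest profiles of each member. Alternatives were other scalings, filters and pseudocounts, an intensity trend, a replicate block and leaving out each library. Names of 512 of the 562 miRNAs matched RefSeq (GRCr8). No replicate libraries were duplicates within sampling noise.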

Additional observations from a re-analysis of the deposited data

How the results depend on the processing

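The count of anti-Rtl1 miRNAs past the threshold (1, against 38 of all miRNAs, 0 of the first domain list and 4 of the Mirg list) depended on the processing. With upper-quartile scaling it was 2 (117, 3 and 21), with a mean of at least 10 it was 2 (63 of all miRNAs), with at least 10 reads in every library 3 (96, 3 and 8) and with an intensity trend 3 (88, 2 and 9). With total-count scaling it was again 1, but miR-127-5p in place of miR-433-5p, and of 51 miRNAs called 42 were higher, whereas 108 of 117 were lower with upper quartiles. The median log2 fold change of the 9 was -0.40 with upper-quartile scaling. Signs turned with total counts for miR-434-3p (0.0458) and miR-136-3p (0.13), and with upper quartiles for miR-431 (-0.19), miR-127-3p (-0.29) and miR-434-5p (-0.22). Of the arm ratios, 1 of the 4 hairpins, miR-136, passed with a mean of at least 10, and 30 of all hairpins against 20. The causes were not tested.

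Leaving out each library gave 0 to 3 anti-Rtl1 miRNAs (0 without any sham library or CCI-ION replicate 3, 3 without CCI-ION replicate 2), 7 to 43 of all miRNAs, 0 of the first list each time and 1 to 4 of the Mirg list, medians of -0.20 to -0.03, 0 to 1 arm ratios of the 4 hairpins and 3 to 22 of all hairpins, and 3 to 5 ratios to miR-127-3p without overlap (5 without CCI-ION replicate 1). Log2 fold changes then ran from -0.0709 to 0.0985 for miR-127-3p (-0.03 without sham replicate 1) and from -0.51 to 0.34 for miR-136-3p (0.07 without sham replicate 1).

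With the replicate number as a block, 0 of the 9, 3 of all miRNAs and 1 of the Mirg list passed, and 0 arm ratios of all hairpins. miR-433-5p then had an adjusted p of 0.113 (limma). Deviations of equally numbered libraries correlated at -0.03, 0.19 and -0.01. With 3 libraries per group this cannot tell whether the numbers pair the libraries, and the labels do not say. DESeq2, edgeR and TMM scaling, planned as alternatives, were not run. The reason was a check that takes the smallest value listed as 1 read, whereas it was 5 steps in every library. The match of the steps to recomputed size factors, given above, is what a step of 1 read would give.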
